A study of Mus musculus with 6 samples.

Results

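The Gadd45 family comprises 3 genes, Gadd45a, Gadd45b and Gadd45g, found by symbol among the 20325 genes listed for each library. The genes were chosen by their measured levels and fold changes in the 2 sorted populations, so the contrast between those populations is given for them as a description, with no test. The RNA came from sorted mouse cells, derived from neural stem cells, on their way to pluripotency. Nanog+E-cadherin+ cells (n = 3 libraries) carried the pluripotency factor Nanog and the epithelial adhesion protein E-cadherin, and Nanog+E-cadherin- cells (n = 3 libraries) carried Nanog without E-cadherin. All 6 libraries shared a mixed 129/Black 6 background, neural stem cells taken at postnatal day 4, and induction up to day 7. They also shared 2 copies of a doxycycline-inducible Oct4, Sox2, c-Myc and Klf4 cassette (Stemcca) in the ColA1 locus and 1 copy of the reverse tetracycline activator in Rosa26. Beside the sort, the libraries differed in replicate number, and in depth and background as given below. The cells were fixed, permeabilised and stained before sorting, so both gates rest on protein staining at a single time, and unsorted neural stem cells were not analysed here. In such bulk samples, fewer cells of a type and less RNA per cell cannot be told apart. Whether the replicates are independent cultures is not stated in the labels, and the p-values therefore cover no more than the spread among these libraries, which may be technical.

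Gadd45 proteins are small acidic nuclear proteins without enzyme activity of their own that act by binding others. They activate the kinase Map3k4 and through it the p38 and JNK stress kinases, bind the replication clamp Pcna and the CDK inhibitor p21 (Cdkn1a), hinder the mitotic kinase Cdk1 in complex with cyclin B1, and have been tied to DNA demethylation by repair. Gadd45a is a classic p53 target induced by DNA damage, Gadd45b was cloned as a myeloid differentiation gene and is induced by NF-kB and TGF-beta, and Gadd45g is transcribed in neural precursors of the embryo that are leaving the cycle, where it shares expression with proneural factors and Notch ligands.

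The start regions of the 3 genes are shown as a description, as the induced cassette encodes an octamer-binding factor (Oct4) and an E-box-binding factor (c-Myc). A link between motifs and the levels below was not tested. The windows are the 250 bases before the annotated start, 5′ to 3′ on the gene's strand, from RefSeq on GRCm38, for which all 3 genes matched. Gadd45a lies at chr6:67037408-67037657 on the minus strand, Gadd45b at chr10:80929841-80930090 on the plus strand and Gadd45g at chr13:51846425-51846674 on the plus strand. Capitals mark matches to 4 motifs searched on both strands: the octamer ATGCAAAT, the CCAAT box CCAAT, the E-box CACGTG and the TATA box TATAAA.
Gadd45a: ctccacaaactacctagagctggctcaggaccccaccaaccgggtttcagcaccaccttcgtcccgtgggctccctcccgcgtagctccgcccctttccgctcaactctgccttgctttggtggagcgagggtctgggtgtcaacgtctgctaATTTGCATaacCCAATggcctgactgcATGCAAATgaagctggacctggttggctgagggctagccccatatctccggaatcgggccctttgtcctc
Gadd45b: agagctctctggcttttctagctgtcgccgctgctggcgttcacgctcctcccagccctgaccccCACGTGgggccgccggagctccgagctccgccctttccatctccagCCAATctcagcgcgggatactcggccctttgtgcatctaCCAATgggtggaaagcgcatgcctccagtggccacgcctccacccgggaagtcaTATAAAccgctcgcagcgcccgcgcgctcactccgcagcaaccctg
Gadd45g: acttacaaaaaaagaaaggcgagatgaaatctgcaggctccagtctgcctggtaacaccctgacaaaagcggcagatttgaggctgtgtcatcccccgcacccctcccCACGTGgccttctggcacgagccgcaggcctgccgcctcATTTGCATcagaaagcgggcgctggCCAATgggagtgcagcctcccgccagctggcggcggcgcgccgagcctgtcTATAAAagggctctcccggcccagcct

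The octamer occurred 2 times in the Gadd45a window and 1 time in that of Gadd45g, and was not among the letters of the Gadd45b window. It was present in 1.60% of all 32851 windows of this length, and 2 or more times in 0.0974%. In the human GADD45A promoter, octamer and CCAAT motifs are known as sites of Oct1 and NF-Y. The CCAAT box was found in all 3 windows, 2 times in Gadd45b, against 33.8% of all windows. Gadd45b and Gadd45g shared an E-box (6.02% of windows) and a TATA box (12.4% of windows), and Gadd45a had neither; 0.167% of windows held CCAAT box, E-box and TATA box together. No 2 matches overlapped in these windows. A match is a description of letters and not evidence of a bound site. The motifs were chosen with the sequences known, so nothing is read from how rare the matches are.

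Cdh1, which encodes E-cadherin, averaged 129 ± 21.3 CPM (read counts relative to library size, scaled by TMM, a correction for RNA composition) in Nanog+E-cadherin+ cells against 17.4 ± 2.53 CPM in Nanog+E-cadherin- cells, and Nanog at 116 ± 15.1 and 106.8 ± 28.2 CPM (SD, n = 3 each). The factors encoded by the cassette had fitted log2 fold changes of 0.38 ± 0.31 (SE) for Pou5f1 (Oct4), -0.01 ± 0.25 for Myc, -0.25 ± 0.29 for Klf4 and -0.16 ± 0.25 for Sox2; cassette transcripts can be among their counts. In the pair numbered 1, Pou5f1 stood at 548 CPM in the Nanog+E-cadherin+ library and 276 CPM in the Nanog+E-cadherin- library, and Klf4 at 207 and 334 CPM. Libraries held between 8851110 and 39630916 expected counts. As a measure of background, 1447 olfactory and vomeronasal receptor genes summed to between 31.9 and 155 CPM of library totals in the Nanog+E-cadherin+ libraries, and to 36.1, 1886 and 1215 CPM in Nanog+E-cadherin- replicates 1, 2 and 3. Nanog+E-cadherin- replicates 2 and 3 therefore stand apart. Fold changes of the members and medians of the lists are also given without them, which sets all 3 Nanog+E-cadherin+ libraries against the single Nanog+E-cadherin- replicate 1, and within the pair numbered 1.

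Gadd45g dominated the family and was lower in Nanog+E-cadherin+ cells in every library, while Gadd45a and Gadd45b were at a more modest level and overlapped between the populations. Levels of the 3 genes are compared with each other in TPM, a share of all transcripts that allows for transcript length. Gadd45g stood at 104, 209.8 and 183 TPM in Nanog+E-cadherin+ replicates 1 to 3, against 221, 639 and 324 TPM in Nanog+E-cadherin- replicates 1 to 3. All 3 Nanog+E-cadherin+ values lay below the lowest Nanog+E-cadherin- value. By TPM it ranked 1393rd, 772nd and 880th of all genes in the Nanog+E-cadherin+ libraries and 660th, 206th and 429th in the Nanog+E-cadherin- libraries.

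Gadd45a, the p53-responsive member, stood at 27.6, 41.9 and 38.6 TPM in Nanog+E-cadherin+ replicates 1 to 3, against 34.1, 51.8 and 28.4 TPM in Nanog+E-cadherin- replicates 1 to 3. Gadd45b, the member responsive to NF-kB and TGF-beta, stood at 16.5, 42.7 and 39.3 TPM in Nanog+E-cadherin+ replicates 1 to 3, against 15.3, 33.5 and 33.4 TPM in Nanog+E-cadherin- replicates 1 to 3. The order of levels was Gadd45g first in all 6 libraries, whereas Gadd45a and Gadd45b had no fixed order: Gadd45a was above Gadd45b in both libraries numbered 1 and in Nanog+E-cadherin- replicate 2, and below it in the other 3 libraries. Gadd45b was lowest in the replicate 1 library of each population.

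Comparisons of 1 gene between libraries are given in CPM, because TPM also moves with the lengths of the other transcripts in a library. In CPM, Gadd45g stood at 83.7, 103 and 98.2 in Nanog+E-cadherin+ replicates 1 to 3, against 165, 314 and 149.8 in Nanog+E-cadherin- replicates 1 to 3. The Nanog+E-cadherin+ libraries lay close together, and Nanog+E-cadherin- replicate 2 stood far above the other 2 of its population. The means were 94.8 ± 9.89 CPM in Nanog+E-cadherin+ cells and 209.6 ± 90.6 CPM in Nanog+E-cadherin- cells (SD, n = 3 each). The fitted log2 fold change in edgeR was -1.14 ± 0.32 (SE) with group as the only term and -1.07 ± 0.20 (SE) with the replicate number as a block, so that Gadd45g in Nanog+E-cadherin+ cells was at 0.452 of its level in Nanog+E-cadherin- cells in the first fit and at 0.477 in the second. Within equal replicate numbers the Nanog+E-cadherin+ library held 0.507, 0.327 and 0.655 of the CPM of its Nanog+E-cadherin- counterpart. Leaving out Nanog+E-cadherin- replicate 2 gave a log2 fold change of -0.73. Leaving out replicates 2 and 3, so that a single Nanog+E-cadherin- library remained, gave -0.81. The pair numbered 1, in which the receptor genes summed to 31.9 and 36.1 CPM, had a log2 ratio of -0.98.

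**Figure D1:**
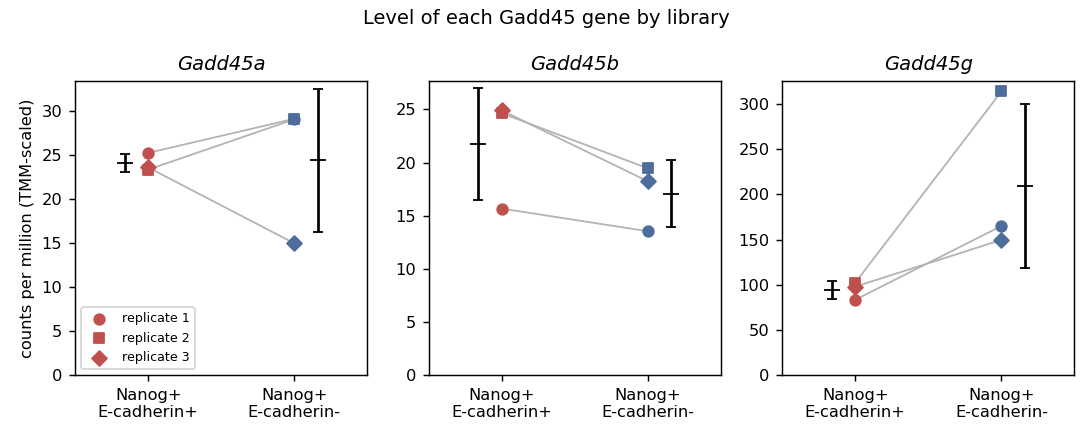
Level of each Gadd45 gene in CPM (TMM-scaled; each panel has its own axis from 0) in the 3 Nanog+E-cadherin+ libraries (red, left) and the 3 Nanog+E-cadherin- libraries (blue, right). Grey lines join libraries of equal replicate number, and black marks give mean ± SD. The Gadd45g values do not overlap (83.7 to 103 against 149.8 to 314 CPM), while those of Gadd45a and Gadd45b do.

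Gadd45a did not separate the populations. It stood at 25.2, 23.4 and 23.6 CPM in Nanog+E-cadherin+ replicates 1 to 3, against 29.1, 29.1 and 14.99 CPM in Nanog+E-cadherin- replicates 1 to 3. The Nanog+E-cadherin+ libraries varied by 4.28% of their mean, within the counting error of their reads (4.60% to 5.69% per library), whereas the Nanog+E-cadherin- libraries varied by 33.4%, with replicate 3 low. The means were 24.1 ± 1.03 CPM in Nanog+E-cadherin+ cells and 24.4 ± 8.14 CPM in Nanog+E-cadherin- cells (SD, n = 3 each), with a fitted log2 fold change of -0.02 ± 0.32 (SE). The sign was not stable: the Nanog+E-cadherin+ library was lower in the pairs numbered 1 and 2 (log2 ratios of -0.21 and -0.32) and higher in the pair numbered 3 (0.65). The blocked value was 0.04 ± 0.26 (SE), and leaving out Nanog+E-cadherin- replicate 3 gave -0.27 ± 0.21 (SE).

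Gadd45b was somewhat higher in Nanog+E-cadherin+ cells within every pair, although the populations overlapped. It stood at 15.7, 24.6 and 24.9 CPM in Nanog+E-cadherin+ replicates 1 to 3, against 13.5, 19.5 and 18.2 CPM in Nanog+E-cadherin- replicates 1 to 3. The means were 21.7 ± 5.25 CPM in Nanog+E-cadherin+ cells and 17.1 ± 3.12 CPM in Nanog+E-cadherin- cells (SD, n = 3 each), and the fitted log2 fold change was 0.35 ± 0.31 (SE), or 0.33 ± 0.23 (SE) with the block. Its log2 ratios within the pairs numbered 1 to 3 were 0.21, 0.34 and 0.45. Leaving out Nanog+E-cadherin- replicate 1 gave 0.22, leaving out Nanog+E-cadherin+ replicate 1 gave 0.54, and leaving out Nanog+E-cadherin- replicates 2 and 3 gave 0.68.

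Of the 3 members, 1, Gadd45g, had no overlap between the populations and was lower, against 3.25% of the 13460 genes tested that were lower without overlap (6.99% in either direction). It was also lower in all 3 pairs, as were 17.3% of genes, and Gadd45b was higher in all 3 pairs, as were 18.9% of genes. Because the contrast had a part in the choice of these genes, nothing is read from these counts. Counts behind the values were 1357 to 1963 for Gadd45g in Nanog+E-cadherin+ libraries and 1429 to 5876 in Nanog+E-cadherin- libraries, so counting error was between 1.30% and 2.71%. For Gadd45a it was between 3.11% and 8.36%, and for Gadd45b between 4.48% and 7.58%.

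The make-up of the family differed with the populations, which follows from the values above. Gadd45g supplied 70.2%, 71.3% and 70.1% of the summed Gadd45 TPM in Nanog+E-cadherin+ replicates 1 to 3, against 81.7%, 88.2% and 84.0% in Nanog+E-cadherin- replicates 1 to 3. Gadd45a supplied 14.2% to 18.6% in Nanog+E-cadherin+ libraries and 7.16% to 12.6% in Nanog+E-cadherin- libraries, and Gadd45b 11.1% to 15.1% and 4.63% to 8.66%. Gadd45g exceeded Gadd45a by 3.77, 5.01 and 4.74 times in Nanog+E-cadherin+ replicates 1 to 3 and by 6.47, 12.3 and 11.4 times in Nanog+E-cadherin- replicates 1 to 3. The summed level of the family was 148, 294 and 261 TPM in Nanog+E-cadherin+ libraries and 270.3, 724 and 386 TPM in Nanog+E-cadherin- libraries, with overlap. The share of Gadd45g in Nanog+E-cadherin+ cells, 70.6% ± 0.627 (SD, n = 3), varied less than its TPM did. A share within a library leaves out differences in TPM scale between libraries, so this is in part arithmetic.

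**Figure D2:**
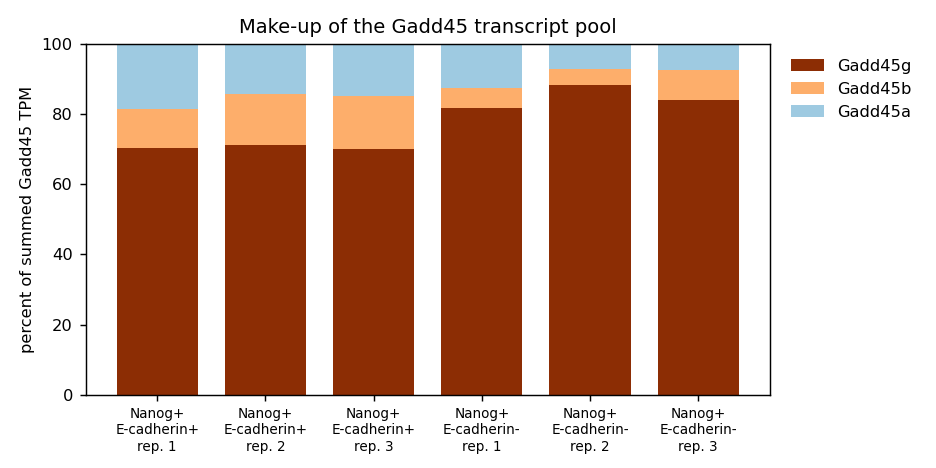
Share of the summed Gadd45 TPM (percent) taken by each gene in each library, Nanog+E-cadherin+ libraries on the left and Nanog+E-cadherin- libraries on the right. Gadd45g takes 70.1% to 71.3% in Nanog+E-cadherin+ libraries and 81.7% to 88.2% in Nanog+E-cadherin- libraries.

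The 3 genes did not vary together across the 6 libraries. Pearson's r of log2 CPM was -0.21 between Gadd45a and Gadd45b, 0.24 between Gadd45a and Gadd45g and -0.20 between Gadd45b and Gadd45g (n = 6 libraries, which share 2 populations and 3 replicate numbers). Among 10444 genes of at least 5 CPM on average, the 5 most alike to Gadd45g were Lhfpl4, which associates with GABA receptors, Cdk5r1, the p35 activator of neuronal Cdk5, Cxx1c, the chemokine-binding receptor Cxcr7 and the imprinted Nnat, with r between 0.97 and 0.98. Cdk5r1 stood at 3.74, 5.14 and 4.20 CPM in Nanog+E-cadherin+ replicates 1 to 3, against 9.44, 17.99 and 9.75 CPM in Nanog+E-cadherin- replicates 1 to 3. Nnat stood at 43.6, 46.2 and 58.1 CPM in Nanog+E-cadherin+ replicates 1 to 3, against 78.0, 122 and 69.3 CPM in Nanog+E-cadherin- replicates 1 to 3. Like Gadd45g, both were highest in Nanog+E-cadherin- replicate 2 and did not overlap between the populations.

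The genes most alike to Gadd45a were Nicn1, Atcay, the apoptosis repressor Nol3, Leng1 and the transcription factor Cebpa, with r between 0.992 and 0.997. They shared its low value in Nanog+E-cadherin- replicate 3, where Cebpa stood at 3.35 CPM against at most 16.6 CPM in the other 5 libraries. Those most alike to Gadd45b were Prx (periaxin), the deacetylase Hdac8, the actin-binding Cnn3 (calponin 3), the exocyst subunit Exoc6b and the tyrosine phosphatase Ptprv, with r between 0.976 and 0.997. Cnn3 stood at 574, 716 and 750.4 CPM in Nanog+E-cadherin+ replicates 1 to 3, against 515, 653 and 603 CPM in Nanog+E-cadherin- replicates 1 to 3, and like Gadd45b it was lowest in the libraries numbered 1. With 6 libraries and 10444 genes, high values of r are to be had by selection alone, and they describe likeness of pattern only.

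**Figure D3:**
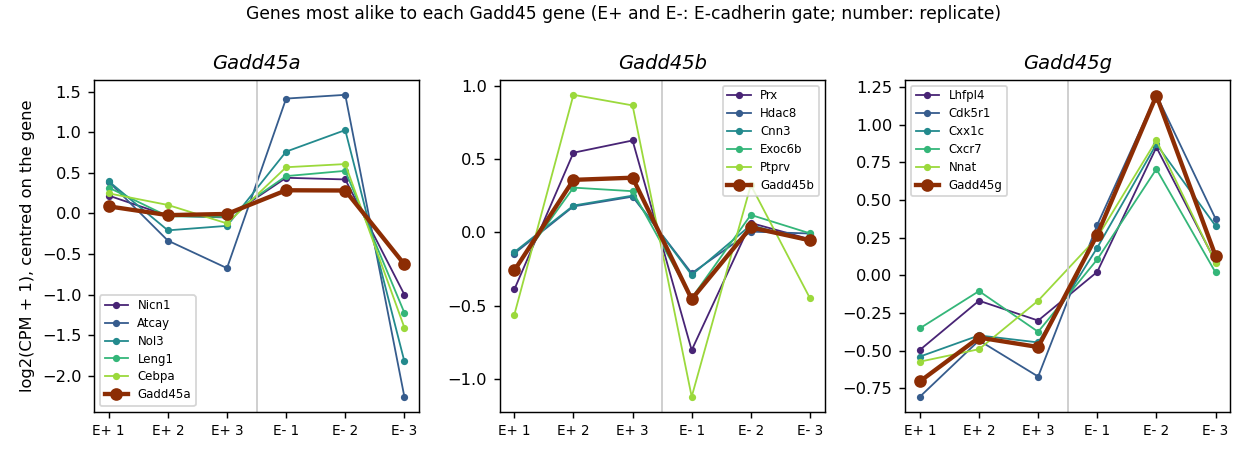
Pattern of each Gadd45 gene (thick line) and of the 5 genes most alike to it (thin lines) over the 6 libraries, as log2(CPM + 1) centred on each gene's mean, with Nanog+E-cadherin+ libraries left of the grey line and Nanog+E-cadherin- libraries right of it; lines only join the values of 1 gene. Gadd45g peaks in Nanog+E-cadherin- replicate 2 (314 CPM), and Gadd45a is lowest in Nanog+E-cadherin- replicate 3 (14.99 CPM).

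For the genes around the family, calls come from the quasi-likelihood test of edgeR, adjusted by Benjamini-Hochberg over all 13460 genes. With group as the only term it called 0 genes (0% of those tested), with 359 at an unadjusted p under 0.05; DESeq2 called 21 (0.156%, of which 0.0223% lower and 0.134% higher), with 490 at an unadjusted p under 0.05, and limma-voom called 0, with 256. With the replicate block it called 0.305% of the genes tested, 0.215% higher and 0.0892% lower, and 1440 of the 13460 genes had an unadjusted p under 0.05, which is the background for the blocked unadjusted counts of the lists below. The median log2 fold change of all genes tested was -0.01 with group only and 0.02 with the block, and the calls given below rest on the block. Medians and fitted directions of the lists are from the group-only fit unless stated otherwise. In that fit 6938 of all 13460 genes were lower and 6522 higher. Within the pairs numbered 1 to 3, 6655, 6928 and 6359 were lower. Without Nanog+E-cadherin- replicates 2 and 3, 6446 of 13455 were lower.

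The proneural and Notch genes, with which Gadd45g shares expression in the embryonic nervous system, were mostly lower in Nanog+E-cadherin+ cells. Of 22 listed genes 21 were tested, and 3 fell with the block, namely the Notch ligands Dll1 and Dll3 and the neuronal beta-tubulin Tubb3, while 0 rose. In the group-only fit 20 of the 21 had a log2 fold change below 0 and 0 passed, with 3 at an unadjusted p under 0.05, and the median was -0.85 (-0.68 with the block). Within the pairs numbered 1 to 3, 20, 21 and 16 of the 21 were lower, with median log2 ratios of -0.91, -0.76 and -0.65. Without Nanog+E-cadherin- replicates 2 and 3, 20 of 22 tested were lower, with a median of -1.48 and 0 called. Dll1 stood at 44.4, 42.3 and 15.9 CPM in Nanog+E-cadherin+ replicates 1 to 3, against 127, 119 and 57.6 CPM in Nanog+E-cadherin- replicates 1 to 3 (edgeR with the block: log2 fold change -1.62 ± 0.17 (SE) at an adjusted p of 0.0143). Dll3 stood at 40.5, 32.2 and 10.4 CPM in Nanog+E-cadherin+ replicates 1 to 3, against 110.1, 126 and 38.4 CPM in Nanog+E-cadherin- replicates 1 to 3. Dll4, which did not pass, stood at 12.4, 11.1 and 4.25 CPM in Nanog+E-cadherin+ replicates 1 to 3, against 34.1, 32.9 and 7.97 CPM in Nanog+E-cadherin- replicates 1 to 3. The Notch ligands were lowest in replicate 3 of either population, which Gadd45g was not in Nanog+E-cadherin+ cells. Likeness to this list was not particular to Gadd45g. Of the 21 genes, 20 had an r above 0 with Gadd45g (median 0.48), 19 with Gadd45a (median 0.54) and 3 with Gadd45b (median -0.57). Among all 13457 genes compared, 6911, 6844 and 7011 had an r above 0 with Gadd45g, Gadd45a and Gadd45b.

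Neuronal markers moved only in part with Gadd45g. Of 10 neuron markers 9 were found and tested, and 7 of them had a log2 fold change below 0. Their summed level was 876, 437 and 239 CPM of library totals in Nanog+E-cadherin+ replicates 1 to 3, against 1244, 724 and 377 CPM in Nanog+E-cadherin- replicates 1 to 3, so it was lower in Nanog+E-cadherin+ cells within each pair but highest in the libraries numbered 1, where Gadd45g was not highest. Neural stem cell markers also had lower sums in Nanog+E-cadherin+ cells within each pair, with 6 of 7 fitted lower: 655, 1225 and 1252 CPM in Nanog+E-cadherin+ replicates 1 to 3, against 788, 1313 and 1481 CPM in Nanog+E-cadherin- replicates 1 to 3. Astrocyte markers went the other way, with 1 of 6 tested fitted lower and sums of 73.0, 475 and 1132 CPM in Nanog+E-cadherin+ replicates 1 to 3, against 48.4, 451 and 819.5 CPM in Nanog+E-cadherin- replicates 1 to 3. Pluripotent cell markers had 0 of 7 tested fitted lower, and their sums of 488 to 694 CPM in Nanog+E-cadherin+ libraries lay above the 407 to 450.3 CPM of the Nanog+E-cadherin- libraries. That list holds Nanog, on which the cells were sorted, and Pou5f1, which the cassette encodes. Pou5f1 is a large part of the sums: 548, 283 and 292 CPM (TMM-scaled) in Nanog+E-cadherin+ replicates 1 to 3, against 276, 300 and 286 CPM in Nanog+E-cadherin- replicates 1 to 3. The neural stem cell list likewise holds the cassette gene Sox2. Sums without these genes were not computed. The part of cell make-up in the Gadd45g difference was not tested.

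Among binding partners and MAP kinases, Cdk1 and Ccnb1 were higher in Nanog+E-cadherin+ cells and the other 16 genes did not pass. All 18 listed genes were tested, and 2 rose with the block and 0 fell. With group only the median log2 fold change was 0.17 (0.21 with the block), and 0 passed (2 at an unadjusted p under 0.05). The median was -0.01 without Nanog+E-cadherin- replicates 2 and 3, with 9 of 18 lower, and 0.06 within the pair numbered 1. Those that rose were Cdk1, the mitotic kinase that Gadd45 proteins hinder, and its cyclin Ccnb1. Ccnb1 stood at 423, 282 and 225 CPM in Nanog+E-cadherin+ replicates 1 to 3, against 175, 99.01 and 139 CPM in Nanog+E-cadherin- replicates 1 to 3 (edgeR with the block: log2 fold change 1.16 ± 0.18 (SE) at an adjusted p of 0.0470), without overlap. Cdk1 stood at 425, 229 and 185 CPM in Nanog+E-cadherin+ replicates 1 to 3, against 142, 58.8 and 73.5 CPM in Nanog+E-cadherin- replicates 1 to 3 (1.62 ± 0.16 (SE) at an adjusted p of 0.0143 in edgeR). Pcna, the replication clamp bound by Gadd45 proteins, averaged 360.2 ± 158 CPM in Nanog+E-cadherin+ cells and 223 ± 125 CPM in Nanog+E-cadherin- cells, and the p38 kinase activator Map2k3 averaged 134 ± 21.3 and 96.7 ± 26.7 CPM (SD, n = 3 each), and neither passed.

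The p53 genes, the textbook regulators and co-targets of Gadd45a, had 0 of 18 called in either fit, with 4 at an unadjusted p under 0.05 with the block, 13 fitted higher and a median log2 fold change of 0.14. The median was 0.20 both without Nanog+E-cadherin- replicates 2 and 3 and within the pair numbered 1. The desmosome-associated Perp averaged 102 ± 15.8 CPM in Nanog+E-cadherin+ cells and 45.0 ± 14.8 CPM in Nanog+E-cadherin- cells (SD, n = 3 each), with a blocked log2 fold change of 1.21 ± 0.19 (SE) that missed the threshold at an adjusted p of 0.0537 in edgeR. Btg2, an antiproliferative p53 target and immediate early gene also known from neurogenic precursors, stood at 156, 195 and 156 CPM in Nanog+E-cadherin+ replicates 1 to 3, against 198, 240.4 and 207 CPM in Nanog+E-cadherin- replicates 1 to 3. Its populations did not overlap, and its blocked log2 fold change of -0.35 ± 0.13 (SE) did not pass. Phlda3, an Akt inhibitor, averaged 236 ± 17.6 CPM in Nanog+E-cadherin+ cells and 172 ± 34.002 CPM in Nanog+E-cadherin- cells, and the mTORC1 inhibitor Ddit4 averaged 392 ± 107.6 and 573 ± 236 CPM (SD, n = 3 each).

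Regulators of Gadd45 transcription likewise had 0 of 16 called in either fit, with 3 at an unadjusted p under 0.05 with the block and a median log2 fold change of 0.14 (0.18 without Nanog+E-cadherin- replicates 2 and 3, 0.08 within the pair numbered 1). Relb, an NF-kB subunit, stood at 17.4, 29.5 and 30.2 CPM in Nanog+E-cadherin+ replicates 1 to 3, against 14.3, 18.2 and 16.2 CPM in Nanog+E-cadherin- replicates 1 to 3. It shared the low values of Gadd45b in the libraries numbered 1, with an r of 0.93, the highest of this list with Gadd45b (n = 6 libraries). Brca1, the repair factor known to induce human GADD45A, averaged 88.0 ± 6.57 CPM in Nanog+E-cadherin+ cells and 56.5 ± 12.5 CPM in Nanog+E-cadherin- cells, without overlap. Atf4 averaged 319 ± 187 CPM in Nanog+E-cadherin+ cells and 244 ± 196 CPM in Nanog+E-cadherin- cells, and Nfya, a subunit of the CCAAT-binding NF-Y, 65.5 ± 13.3 and 51.3 ± 6.70 CPM (SD, n = 3 each).

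The integrated stress response, which includes 2 further genes first named for growth arrest and DNA damage, Ddit3 and Ppp1r15a, had 0 of 16 called in either fit, with 6 at an unadjusted p under 0.05 with the block and a median log2 fold change of -0.06. Vegfa averaged 54.9 ± 17.1 CPM in Nanog+E-cadherin+ cells and 87.7 ± 32.9 CPM in Nanog+E-cadherin- cells, the pseudokinase Trib3 averaged 20.3 ± 14.6 and 12.3 ± 12.7 CPM, and the cystine transporter Slc7a11 averaged 67.0 ± 12.3 and 46.8 ± 18.4 CPM (SD, n = 3 each). Of 16 genes, 1 had an r above 0 with Gadd45b and 12 had one with Gadd45a, against 7011 and 6844 of 13457 among all genes. The median was -0.54 without Nanog+E-cadherin- replicates 2 and 3, with 14 of 16 genes lower, but within the pairs numbered 1 to 3 it was -0.17, -0.03 and 0.22.

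Immediate early genes, among which Gadd45b is often counted, had 0 of 22 tested called in either fit, with 4 at an unadjusted p under 0.05 with the block and a median log2 fold change of 0.14 (-0.40 without Nanog+E-cadherin- replicates 2 and 3). Within the pair numbered 1 the median was 0.07, with 8 of 22 lower, so the sign turned with the Nanog+E-cadherin+ libraries that Nanog+E-cadherin- replicate 1 was set against. Cyr61, a matricellular protein gene, stood at 302, 447 and 522 CPM in Nanog+E-cadherin+ replicates 1 to 3, against 226, 428 and 349 CPM in Nanog+E-cadherin- replicates 1 to 3, and had the highest r of this list with Gadd45b (0.96, n = 6 libraries). The list as a whole did not follow Gadd45b: 8 of the 22 genes had an r above 0 with it, and the median r was -0.48. Among all genes these values were 7011 of 13457 and 0.04. Ier2 averaged 181 ± 133 CPM in Nanog+E-cadherin+ cells and 137 ± 116 CPM in Nanog+E-cadherin- cells, and Nr4a1 averaged 160.2 ± 84.3 and 125 ± 68.5 CPM (SD, n = 3 each); both were highest in the libraries numbered 1. Fosl1 was below the count filter.

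Genes of active DNA demethylation and excision repair, a process to which Gadd45 proteins have been tied, had 0 of 17 tested called in either fit, with 1 at an unadjusted p under 0.05 with the block and a median log2 fold change of -0.23 (-0.06 without Nanog+E-cadherin- replicates 2 and 3, -0.01 within the pair numbered 1). Tet3, a methylcytosine oxidase, averaged 73.3 ± 22.3 CPM in Nanog+E-cadherin+ cells and 91.8 ± 15.6 CPM in Nanog+E-cadherin- cells, and the glycosylase Neil2 averaged 7.18 ± 1.65 and 11.4 ± 2.17 CPM without overlap (SD, n = 3 each). The abasic endonuclease Apex1 averaged 145 ± 58.6 CPM in Nanog+E-cadherin+ cells and 111.0 ± 55.8 CPM in Nanog+E-cadherin- cells, and the nuclease subunit Ercc1 averaged 30.1 ± 10.5 and 23.6 ± 12.6 CPM (SD, n = 3 each).

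**Figure D4:**
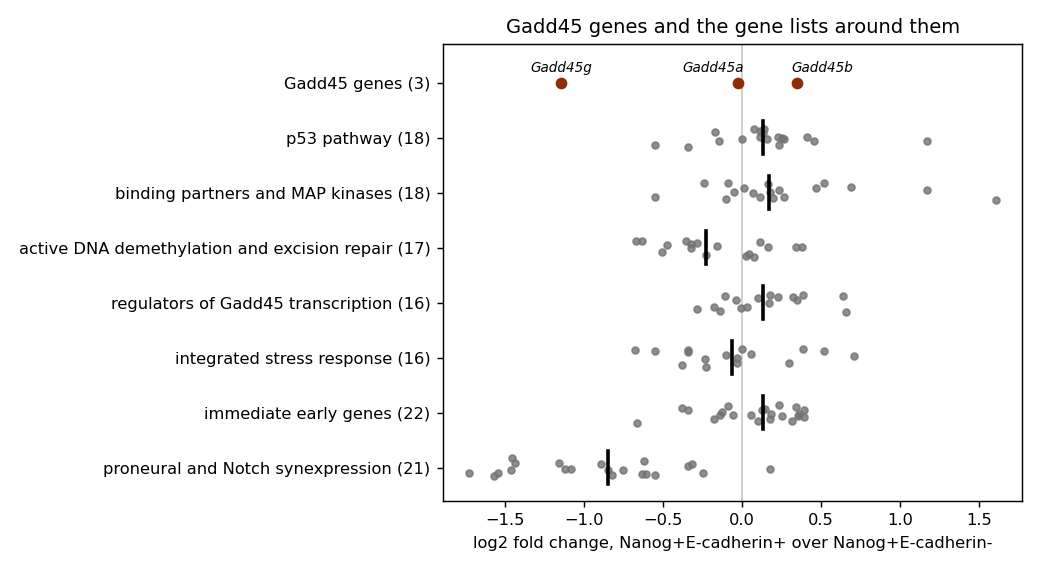
Fitted log2 fold change (Nanog+E-cadherin+ over Nanog+E-cadherin-, group as the only term) of the 3 Gadd45 genes (dark red) and of every tested gene of the 7 lists around them (grey points, number tested in brackets), with list medians as black bars. The proneural and Notch list has a median of -0.85, while the other 6 lists have medians between -0.23 and 0.17.

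The fitted changes of the 3 genes kept their relation under the settings tried. Gadd45g was below 0 under all 18 alternatives (log2 fold change -1.33 to -0.73), Gadd45b was above 0 under all 18 (0.22 to 0.68), and Gadd45a was above 0 under 7 and below 0 under 11 (-0.28 to 0.22). Some Gadd45b values were smaller than their SE, such as 0.22 ± 0.35 (SE) without Nanog+E-cadherin- replicate 1 and 0.23 ± 0.57 (SE) for log2(TPM + 0.1). All settings reuse the same 6 libraries, so a shared sign among them is no test of direction.

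**Figure D5:**
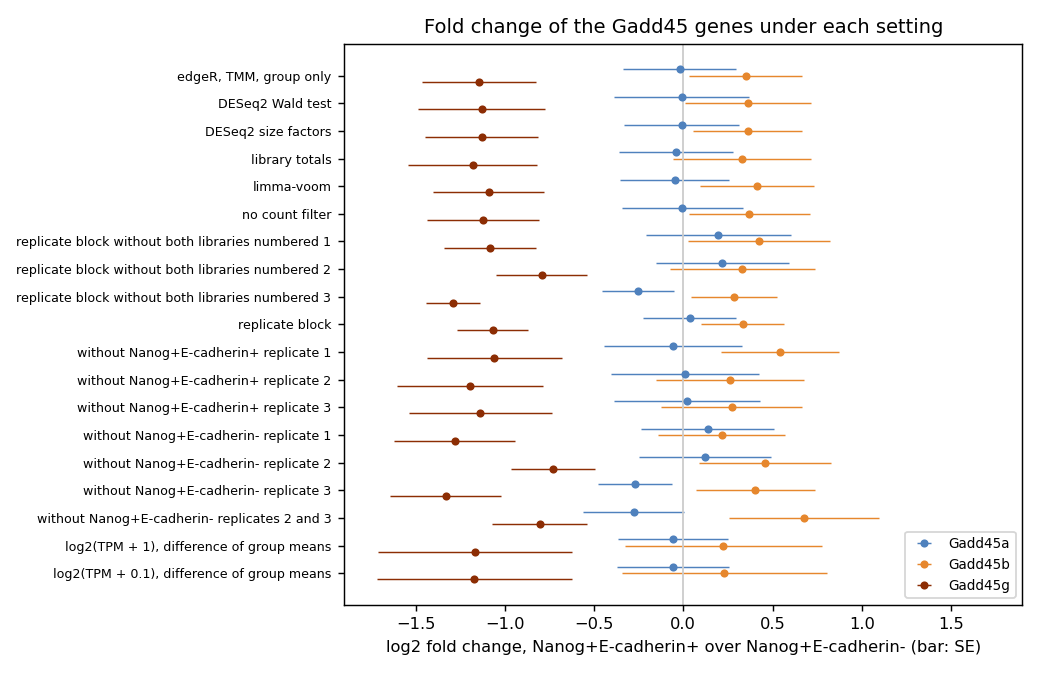
Fitted log2 fold change (Nanog+E-cadherin+ over Nanog+E-cadherin-) ± SE of Gadd45a, Gadd45b and Gadd45g under the reported fit (top) and 18 other settings. Gadd45g lies between -1.33 and -0.73, and the Gadd45a values lie on either side of 0.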

How the data were processed

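RNA-seq of 6 libraries was deposited as 1 file per library, and groups and replicate numbers come from the titles. Bowtie, RSEM 1.2.4 and the build mm9 are named per the submitters' processing notes. The sources used here give neither the settings nor the use of strand. Per the file headers, each gene has an expected count, a TPM and an FPKM value. The expected counts deposited by the authors were rounded to whole numbers for the tests; the authors' TPM values served levels between genes and the alternatives log2(TPM + 1) and log2(TPM + 0.1); the deposited FPKM values were not used.

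Tests were run in R 4.3.3 with edgeR 4.0.16. Genes were kept by filterByExpr (minimum count 10, total 15), libraries were scaled by TMM, and quasi-likelihood p-values were adjusted by Benjamini-Hochberg over all genes kept, with a threshold of 0.05. limma 3.58.1 and DESeq2 1.42.0 were alternatives. Every fold change has Nanog+E-cadherin+ cells on top. Log2 CPM for r used a prior count of 2. The steps were run on simulated counts whose spread around the fitted terms was set lower than in these data. That run checks the steps and says nothing of their power here. Counting errors (100 divided by the root of the count) cover counting only. SD values give the spread between libraries, and SE values from the fits include it.

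The deviations of same-numbered libraries from their group means had correlations of 0.75, 0.41 and 0.48 (the limit for pairing was 0.1), and those of differently numbered ones lay between -0.62 and 0.12. Unlike numbers also passed the limit, with 0.122 for Nanog+E-cadherin+ number 2 with Nanog+E-cadherin- number 3, and 0.1023 for the reverse. The limit alone therefore does not set same-numbered libraries apart. Deviations within a group cancel out, so negative values between unlike numbers are in part arithmetic. The pairing by replicate number is read from the higher same-numbered values. It is not given by the labels and was not tested, and calls with the block rest on it. Blocked values are given beside results.

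The members, lists, motifs and alternatives were chosen with earlier results of these data, or the sequences, known. Named genes are the 3 members; per list, all that passed in either fit and then those of smallest p with the block, up to 4; and per member the 5 genes of highest r, passing over predicted and clone-named genes.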

Additional observations from a re-analysis of the deposited data

How the results depend on the processing

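The 3 fold changes moved by less than the spread between libraries (1 SD of log2 CPM) under all 18 alternatives, among them DESeq2 size factors, library totals, no count filter, DESeq2, limma-voom and log2(TPM) differences. That SD comes from the same 6 libraries, so leaving out a library can hardly exceed it, and no stability is read from this. The Gadd45g value went from -1.14 to -0.73 without Nanog+E-cadherin- replicate 2, with an SD of 0.424. For Gadd45b it went from 0.35 to 0.68 without Nanog+E-cadherin- replicates 2 and 3, with an SD of 0.332. Leaving out 1 library gave -1.33 to -0.73 for Gadd45g, 0.22 to 0.54 for Gadd45b and -0.27 to 0.14 for Gadd45a. Gadd45a had no stable sign.

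Over all genes, 0 were called with group only and with 1 library left out in turn, 1 without the count filter, 21 by DESeq2 and 41 with the replicate block. The blocked count was 149, 140 and 449 without both libraries numbered 1, 2 and 3, so counts of calls depend on the libraries used. By list, with group only 0 were called in each. With the replicate block 2 were called among binding partners and MAP kinases (2, 2 and 3 without the pairs numbered 1, 2 and 3) and 3 among proneural and Notch genes (3, 6 and 12). The p53 list had 1, 1 and 2 calls in those 3 fits, the regulators 1 and the integrated stress response 3 without the pair numbered 3. The cause of these shifts was not tested.

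With 3 libraries per population, the replicates and not the read depth limit the precision for Gadd45g. Its library-to-library variation was 10.4% of the mean in Nanog+E-cadherin+ cells and 43.2% in Nanog+E-cadherin- cells, above its largest counting error of 2.71%.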

Other observations

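The relation between TPM and CPM differed between libraries for each of the 3 genes. For Gadd45g, 1 CPM equalled 1.25, 2.05 and 1.87 TPM in the Nanog+E-cadherin+ libraries, numbered 1 to 3, against 1.34, 2.04 and 2.16 TPM in the Nanog+E-cadherin- libraries. The 2 libraries numbered 1 thus have the fewest TPM for each CPM. Within a pair the 2 scales gave similar ratios: Gadd45g in the Nanog+E-cadherin+ library was at 0.472, 0.328 and 0.566 of its counterpart in TPM in the pairs numbered 1 to 3, against 0.507, 0.327 and 0.655 in CPM.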
